A study of Mus musculus with 4 samples.

Results

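Clodronate liposomes deplete the liver's resident macrophages, and the question here was whether the liver's response to them differed between a low-fat and a high-fat diet. The measure was a difference of differences on the log2 scale: clodronate minus PBS on the high-fat diet, minus clodronate minus PBS on the low-fat diet. A value below 0 means that the clodronate difference was lower on the high-fat diet, and a value of 1 in either direction is a 2-fold disagreement between the diets. All 4 of the 4 arrays in the series entered the measure, with the 34958 of 45101 probe sets that carried exactly 1 gene symbol. Each gene was represented by its probe set with the highest mean, and 8650 of 18194 genes reached a level of 4 (log2) on at least 1 array and were analysed. Levels under 4 were treated as too dim to measure and set to 4. Of the 8650 genes, 7945 were at 4 or more on all 4 arrays and are called measured. For 246 more, the dim arrays could only make the difference larger, and those values are given as "at least". For the remaining 459 the dim arrays could shrink or turn the difference, and no fold is given for them.

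The animals were male C57BL/6J mice, aged 8 to 12 weeks when the diets began. Diets with 10% or 45% of energy from fat, the lard replaced by palm oil, were fed for 20 weeks. In the last week each mouse had 2 intraperitoneal injections of clodronate liposomes or of PBS. The 4 groups were low-fat PBS and low-fat clodronate, each 1 array of liver RNA pooled from 8 mice, and high-fat PBS and high-fat clodronate, each 1 array pooled from 10 mice. With 1 pooled array in each group the spread between mice was not measured, no difference has a replicate check, and no p-value is given. PBS without liposomes was the control, so what the liposomes, the drug and the loss of macrophages each did cannot be told apart. In whole liver, fewer cells of a type and less RNA per cell cannot be told apart either.

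Kupffer cells, the macrophages that line the liver sinusoids, take up the liposomes, and clodronate released inside them kills them. They clear particles and old red cells from portal blood, feed iron back to the liver, and send cytokine signals to hepatocytes. Hepatocytes in turn answer to pituitary growth hormone, which acts through its receptor, JAK2 and STAT5 and induces its own feedback inhibitors, among them Cish and Socs2. Bile acid synthesis, hepcidin secretion, retinoic acid breakdown and the circadian clock are other hepatocyte programmes with their own regulators, and each was covered by a gene list.

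Array medians over the measured genes lay between 7.59 (high-fat clodronate) and 7.70 (low-fat clodronate), and the hepatocyte list gave a summed level of 17.55 to 17.59 (log2 of the summed signals) on the 4 arrays. Of the Kupffer cell list, 14 of 14 genes reached 4 with low-fat PBS, 6 with low-fat clodronate, 12 with high-fat PBS and 7 with high-fat clodronate. Their summed levels were 13.05, 11.84, 12.96 and 11.55 in that order. On both clodronate arrays these sums came mostly from Slc40a1, C6 and Id3, members that other liver cells express as well. The sums therefore do not measure how much Kupffer cell signal was lost or how that loss differed between the diets. T and NK cell markers were under 4 on every array, in 13 of 13 genes with a probe set.

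Promoter windows of 4 genes are printed because the diet dependence of these genes is described below and each belongs to a programme with a known DNA motif. They are the 250 bases before the transcription start in RefSeq, build GRCm38.p6, read 5′ to 3′ on the gene's own strand, with capitals marking the motif. Cyp26a1 (chr19:37697558-37697807, plus strand) carries a retinoic acid direct repeat, Hamp2 (chr7:30924182-30924431, minus strand) a STAT site and Cry1 (chr10:85185055-85185304, minus strand) an E-box. The window of Cish (chr9:107296409-107296658, plus strand) has no capitals, since none of the motifs searched is in it.
Cyp26a1: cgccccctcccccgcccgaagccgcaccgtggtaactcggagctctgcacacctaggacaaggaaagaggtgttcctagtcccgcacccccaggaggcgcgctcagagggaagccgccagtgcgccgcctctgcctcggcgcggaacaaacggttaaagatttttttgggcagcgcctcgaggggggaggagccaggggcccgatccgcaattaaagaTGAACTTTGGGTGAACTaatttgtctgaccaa
Hamp2: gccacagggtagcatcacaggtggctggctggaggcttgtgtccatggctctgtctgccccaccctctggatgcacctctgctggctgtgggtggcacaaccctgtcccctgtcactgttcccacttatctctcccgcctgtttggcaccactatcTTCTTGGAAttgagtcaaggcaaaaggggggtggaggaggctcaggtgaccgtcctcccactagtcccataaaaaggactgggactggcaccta
Cish: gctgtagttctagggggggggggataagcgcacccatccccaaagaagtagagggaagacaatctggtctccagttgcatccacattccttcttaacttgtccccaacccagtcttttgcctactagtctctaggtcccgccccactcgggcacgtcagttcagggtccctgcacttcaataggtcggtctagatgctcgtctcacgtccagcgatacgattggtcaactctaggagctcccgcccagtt
Cry1: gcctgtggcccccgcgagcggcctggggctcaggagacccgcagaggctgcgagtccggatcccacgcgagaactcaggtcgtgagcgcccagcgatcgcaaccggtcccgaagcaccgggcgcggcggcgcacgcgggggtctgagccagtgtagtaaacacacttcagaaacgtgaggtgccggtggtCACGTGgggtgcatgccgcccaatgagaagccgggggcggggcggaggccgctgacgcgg

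Motifs were searched on both strands in these windows of 27025 genes. The retinoic acid direct repeat known as DR5, a pair of half-sites AGTTCA spaced by any 5 bases, was present in 0.0259% of them, 7 genes in all. Cyp26a1 holds it 32 bases before the start as the opposite-strand match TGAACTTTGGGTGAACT. The same repeat of AGGTCA was in 0.0111%. The STAT site TTCNNNGAA was in 8.13% of all windows and in 8 of 98 windows (8.16%) of genes with a 2-fold diet dependence, and in Hamp2 it lies 94 bases before the start. The E-box CACGTG was in 6.86% of all windows and in 12 of those 98 (12.2%), and in Cry1 it lies 60 bases before the start. The CRE TGACGTCA was in 1.77% of all and in 6 of the 98 (6.12%), and the D-box TTATGTAA in 0.977% and in 0 of the 98. Not every gene past 2-fold had a window. The 98 were drawn from genes that reached 4 in these livers, while the 27025 windows were not chosen by expression. No share over the 8650 genes analysed was taken, so these percentages are no baseline for diet dependence. In the growth hormone list 3 of 13 windows held a STAT site (Bcl6, Igfals, Socs3), and equally 3 of 13 held an E-box (Bcl6, Igf2r, Onecut1). In the core clock list 3 of 10 held an E-box (Ciart, Cry1, Per1), 1 a STAT site (Per1) and 1 a D-box. In each of the 4 printed windows no motif searched overlaps another, since each window holds at most 1 match.

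The clodronate difference was 2-fold or more apart between the diets for 121 of 8650 genes (1.4%). It was higher on the high-fat diet for 21 of them (0.243%) and lower for 100 (1.16%). Of the 121, 116 are measured or bounded, and 3 of the higher and 2 of the lower genes are unresolved. That imbalance moved with the scaling of the arrays. The median difference of differences over all genes was -0.09 as deposited, 0.03 after each array was centred on its median, and 0.01 after quantile normalization, so that other values are best read against it. After centring, 40 genes (0.462%) were 2-fold higher and 52 (0.601%) lower, and after quantile normalization 52 (0.601%) were higher and 46 (0.532%) lower. At 1.5-fold, 784 genes (9.06%) differed as deposited, 159 (1.84%) higher and 625 (7.23%) lower. These counts were 286 (3.31%) and 375 (4.34%) after centring, and 295 (3.41%) and 329 (3.8%) after quantile normalization. By level, 27 of the 100 lower and 9 of the 21 higher genes had a mean under 5, and 42 of the lower and 6 of the higher genes a mean between 5 and 6. The median over all genes of mean level under 5 was -0.058, at 5 to 6 it was -0.16, and at 10 or more -0.067.

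**Figure D1:**
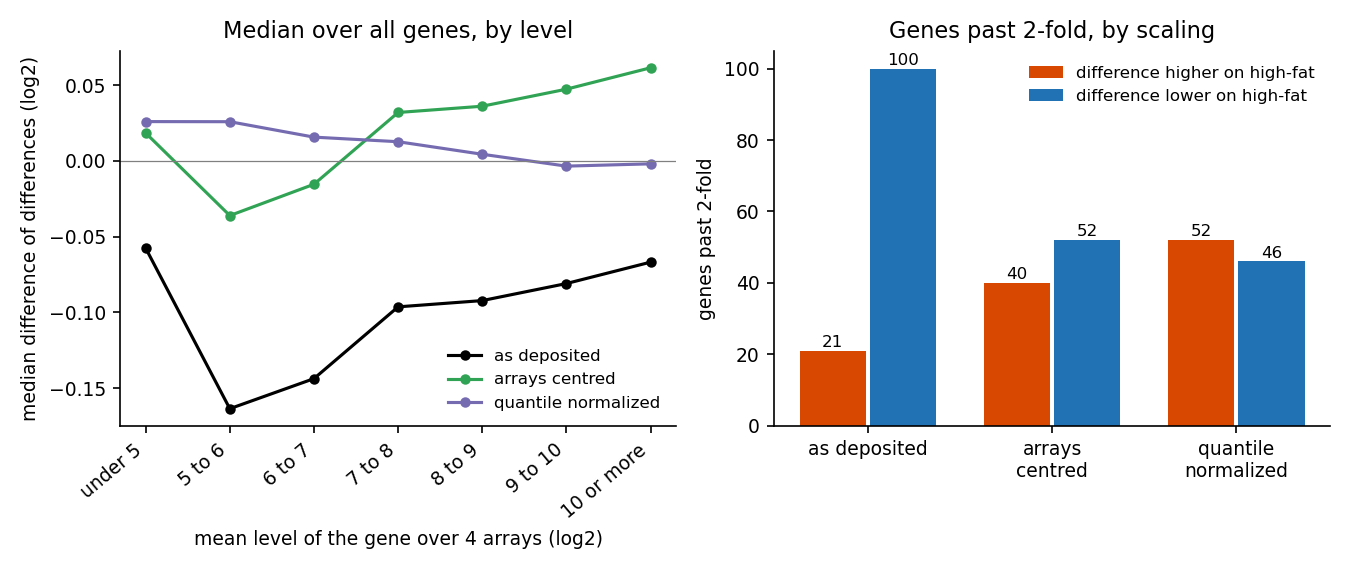
Left, the median difference of differences (log2) of all genes in bins of mean level (log2), as deposited, with arrays centred and after quantile normalization. Right, bars count genes past 2-fold in each direction; the counts go from 21 higher and 100 lower as deposited to 52 higher and 46 lower after quantile normalization.

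Under all 3 scalings 66 genes stayed past 2-fold, 21 of the 21 higher genes and 45 of the 100 lower ones, and the 2-fold differences named below are among them unless a smaller value after centring is given. Centring raised the values of measured genes by nearly the same amount, so it could remove lower genes from the count but not higher ones. Genes that passed 2-fold only after rescaling are not among the 66. Clodronate differences of 1.5-fold or more (0.58 on the log2 scale) were counted on each diet by itself. They held for 292 genes (3.38%) on the low-fat diet and 313 (3.62%) on the high-fat diet, and for 15 genes (0.173%) they held on both diets in opposite directions. Opposite differences of that size always put a gene past 2-fold. Of the 100 lower genes, 14 had opposite differences, 39 differed on the high-fat diet alone, 35 on the low-fat diet alone, 1 on both diets in 1 direction and 11 on neither. Of the 21 higher genes, 5 differed on both diets in 1 direction, 7 on the high-fat diet alone, 6 on the low-fat diet alone, 1 in opposite directions and 2 on neither. In 16 of the 100 lower genes the low-fat clodronate array stood apart as high, and in 15 the high-fat clodronate array stood apart as low; over all genes these shares were 10.8% and 11.9%. Of the 29 lower genes with another detected probe set, 21 had all others in the same direction and 5 had all others at 1.5-fold or more. Over all genes with several detected probe sets, 49.0% and 4.31% did so. As deposited 5703 of 8650 genes lay below 0, and the all-gene shares hold both directions. They are therefore no baseline for the lower genes alone. Of the 7 higher genes with another detected probe set, 4 had all others in the same direction and 2 had all others at 1.5-fold or more.

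**Figure D2:**
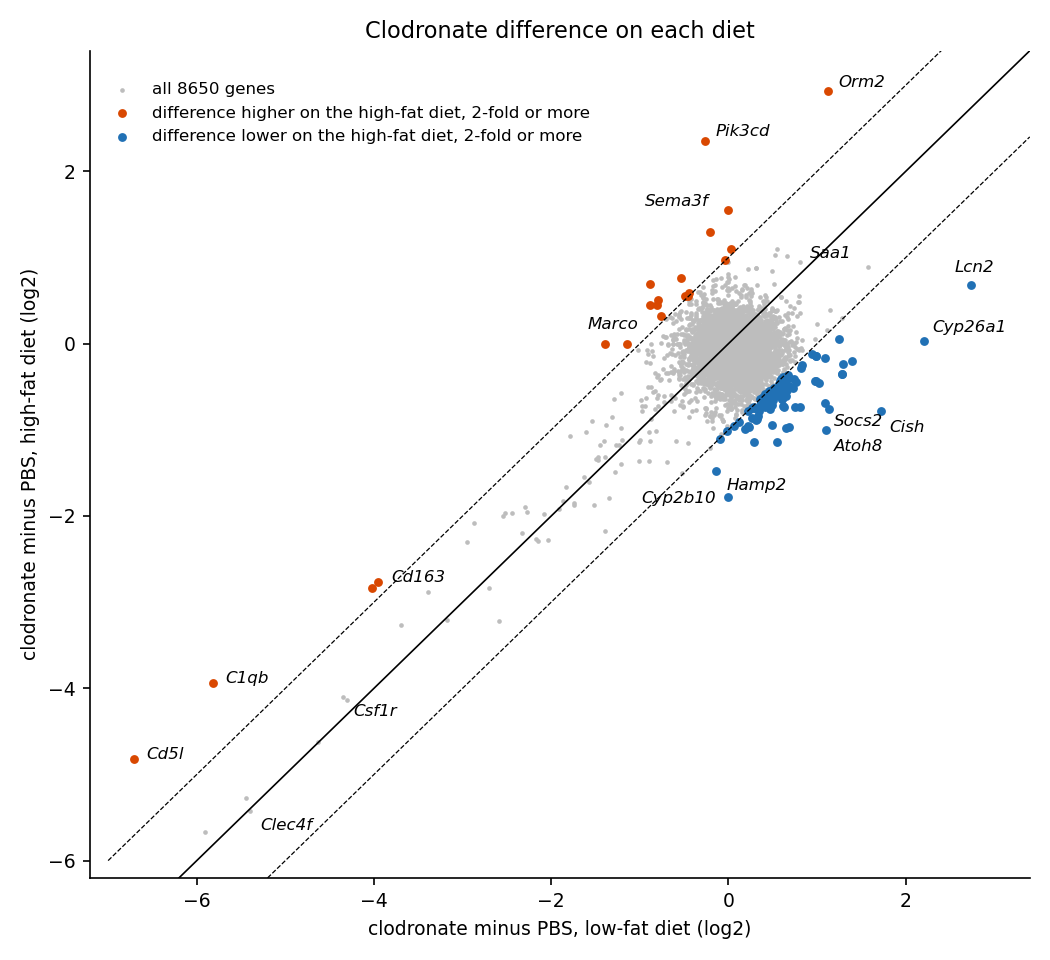
Each point is 1 of 8650 genes, with clodronate minus PBS (log2) on the low-fat diet on the x axis and on the high-fat diet on the y axis. The solid line marks equal differences and the dashed lines a 2-fold disagreement; Cish, Socs2 and Atoh8 lie right of the lines with positive low-fat and negative high-fat values, and Cd5l and C1qb lie above them at the lower left.

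Among measured genes the widest diet dependence was that of Cish, a feedback gene of growth hormone signalling. Cish, a STAT5-induced inhibitor of cytokine receptors, had levels of 5.44 with low-fat PBS, 7.17 with low-fat clodronate, 5.58 with high-fat PBS and 4.80 with high-fat clodronate. The PBS arrays were alike, the low-fat clodronate array stood apart as high, and the high-fat clodronate array was the lowest. The clodronate difference was 1.72 with low-fat and -0.78 with high-fat feeding, a difference of differences of -2.50 (5.67-fold), or -2.37 after centring. Cish has no other detected probe set, so these values rest on a single one.

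Socs2, the inhibitor that limits growth hormone receptor signalling, had 8.12, 9.22, 7.74 and 7.06 in the same order of arrays. Its difference of differences was -1.78 (3.44-fold). Its other detected probe set gave -1.43 from levels of 7.54, 8.71, 6.66 and 6.39, with PBS arrays that were not alike and a clodronate difference of 1.17 with low-fat and -0.26 with high-fat feeding. Onecut1, a liver transcription factor induced by growth hormone, had 5.67, 6.94, 5.63 and 5.28, a difference of differences of -1.63, and its second probe set gave at least -2.58. Rgs3, a GTPase activator of G protein signalling, had 5.62, 7.01, 4.79 and 4.59, and its difference of differences was -1.59 against -0.43 in its other probe set. Rgs3 was put on this list with its earlier result in these data known. In each of these 4 genes low-fat clodronate was the highest array and high-fat clodronate the lowest.

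The receptor and the kinase did not share this pattern. Ghr, the growth hormone receptor, had 12.38, 12.28, 12.32 and 12.41, a difference of differences of 0.19. Jak2 had -0.15 and Stat5b 0.07, while Stat5a had -0.87 from levels of 4.22, 5.03, 4.71 and 4.65; its other probe set, near the limit of 4, gave no resolved value. Of the secreted products, Igf1, the main circulating growth factor made under growth hormone, had 11.81, 12.05, 11.96 and 11.95 (-0.25). Igfals, which holds IGF1 in its ternary complex, had -0.57, and Igfbp3, the other binding partner, had 0.57. Socs3, shared with interleukin-6 signalling, had -0.32, and Bcl6, a repressor that competes at STAT5 sites, -0.00. Of 14 measurable genes on the list of 17, 5 were lower at 1.5-fold and 0 higher, beside 7.23% and 1.84% of all genes. The list's median was -0.44 as deposited and -0.31 after centring, beside -0.09 and 0.03 for all genes. After centring, Igfbp3 was also higher at 1.5-fold. Without Rgs3 the list had 4 of 13 genes lower and a median of -0.32 as deposited and -0.19 after centring. The other members and the list itself were also chosen with earlier results of these data known. Leaving Rgs3 out therefore does not make these counts independent of the data.

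Liver genes that differ between the sexes are read-outs of the pulse pattern of growth hormone. The male-biased list, measurable in 14 genes, had a median of 0.07 with 0 genes at 1.5-fold, beside 9.06% of all genes. Hsd3b5 had -0.35 and Mup3 0.20. The second probe set of Mup3, a major urinary protein with near-identical copies, gave 1.07 from levels of 6.62, 5.77, 6.35 and 6.57, and the median over its probe sets was 0.64. The female-biased list had 7 measurable genes of 18 and a median of -0.52. At 1.5-fold 3 of the 7 were lower and 1 higher, beside 7.23% and 1.84% of all genes. The lower members were Acot3, a peroxisomal acyl-CoA thioesterase (-1.10, and -0.97 after centring), Cyp2b9 (-0.74) and the peroxisomal transporter Abcd2 (-0.69, and -0.56 after centring). Cyp2b9 is unresolved, since both low-fat arrays were under 4. After centring 1 of the 6 resolved genes was lower at 1.5-fold. Fmo2, a flavin monooxygenase, was higher (0.91) from levels under 5 on all 4 arrays. With a floor of 5 its value was 0. Its other detected probe sets were unresolved, at 0.23 and, in the other direction, -0.73.

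**Figure D3:**
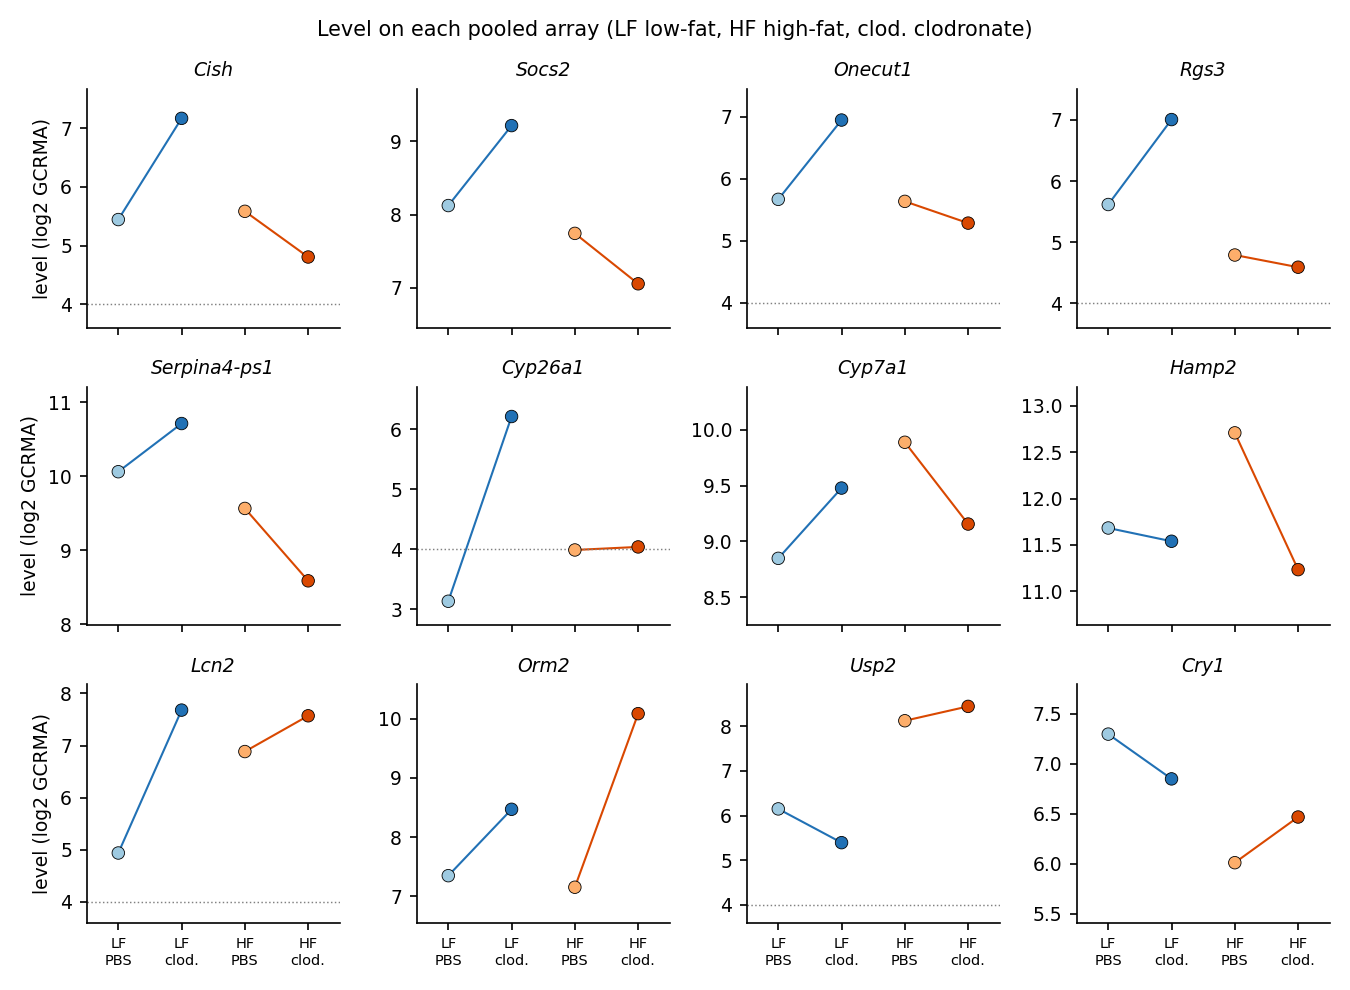
Levels (log2) of 12 genes on the 4 pooled arrays; each point is 1 array, lines join PBS to clodronate within a diet, and the dotted line marks the limit of 4. Lines slope up on the low-fat diet and down on the high-fat diet for Cish, Socs2, Serpina4-ps1 and Cyp7a1, and the other way for Cry1 and Usp2.

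Several other genes had opposite clodronate differences on the 2 diets. Serpina4-ps1, a serpin pseudogene transcribed in liver, had 10.06, 10.71, 9.56 and 8.59, a difference of differences of -1.63. Its 2 other probe sets gave -1.88 and -2.48, so that all 3 placed high-fat clodronate lowest and low-fat clodronate highest; the probe set with the highest mean is of a type whose probes can match related transcripts. Atoh8, a transcription factor of the BMP and hepcidin pathway, had 4.34, 5.44, 5.26 and 4.26 (-2.10, 4.28-fold). Its low-fat PBS and high-fat clodronate arrays were both close to the limit. Rnf186, a ubiquitin ligase of the endoplasmic reticulum, had 6.71, 7.51, 7.98 and 7.25 (-1.54), and here high-fat PBS was the highest array.

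Lgr5, the R-spondin receptor that marks pericentral hepatocytes, had 3.94, 4.75, 4.74 and 3.79, at least 2.81-fold lower on the high-fat diet. Aptx, a DNA strand-break repair enzyme, had 5.11, 5.79, 5.80 and 4.84 (-1.64), and the unnamed transcript D130043K22Rik had 4.78, 5.91, 5.73 and 4.97 (-1.90). In these 3 genes low-fat PBS and high-fat clodronate were the low pair. Fbxo30, a ubiquitin ligase subunit, had 5.73, 6.27, 5.94 and 4.81 (-1.68), with smaller values of -0.75, -0.46 and -0.19 in 3 other probe sets. Zfp2, a zinc finger protein, gave at least 2.34-fold, the secreted phospholipase Pla2g12a at least 2.68-fold, and Pard6a, a cell polarity protein, at least 2.10-fold (-1.07, and -0.96 after centring). The clodronate difference reached 1.5-fold on the high-fat diet alone for Fbxo30, on the low-fat diet alone for Pla2g12a and on neither diet for Pard6a.

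Cyp26a1, the cytochrome P450 that breaks down retinoic acid, was at 3.13 with low-fat PBS, 6.21 with low-fat clodronate, 3.99 with high-fat PBS and 4.04 with high-fat clodronate. It stood out on the low-fat clodronate array alone, and the other 3 arrays were close to the limit or under it. The clodronate difference on the low-fat diet was at least 4.63-fold. The difference of differences, -2.18, is not resolved, because high-fat PBS was itself under 4; with no floor it was -3.03. Of the 12 measurable genes on the retinoid list, Cyp26a1 was the 1 at 1.5-fold, beside 9.06% of all genes. The storage enzyme Lrat had 0.16, the retinol carrier Rbp4 -0.05, the retinaldehyde reductase Dhrs3 -0.21 and the nuclear receptor Rxra -0.14, and the list's median was -0.05.

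Among bile acid genes the first enzyme of the pathway had the widest value. Cyp7a1, the rate-limiting enzyme of bile acid synthesis, had 8.85, 9.48, 9.89 and 9.16. The difference of differences was -1.36 (2.57-fold), and -1.43 in the second probe set, with 6.42, 7.06, 7.28 and 6.51. In both probe sets low-fat clodronate was above low-fat PBS and high-fat clodronate below high-fat PBS. Cyp8b1, the enzyme that makes cholic acid, had 0.14 and Nr0b2, the repressor SHP that acts on Cyp7a1, 0.18. Of 15 measurable genes on the bile acid list, Cyp7a1 was the 1 at 1.5-fold, beside 9.06% of all genes, and the median was -0.06.

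Hamp2, a paralogue of the iron hormone hepcidin, had 11.68, 11.54, 12.71 and 11.23. High-fat PBS stood apart as high, and the clodronate difference was -0.14 with low-fat and -1.48 with high-fat feeding (-1.33, 2.52-fold). This probe set is also of the type that can match related transcripts, and the other Hamp2 probe set was under 4 on all arrays. Hamp, hepcidin itself, had 13.92, 14.12, 13.87 and 13.93 (-0.14). Id1, a target of BMP signalling from iron stores, had 6.92, 7.67, 8.23 and 8.01 (-0.97), and Alas1, the rate-limiting enzyme of haem synthesis in liver, 10.85, 11.34, 11.44 and 11.01 (-0.91, and -0.73 in its other probe set).

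Slc11a2, the iron importer DMT1, had -0.69, which made 4 of 17 measurable iron and haem genes lower at 1.5-fold and 0 higher, beside 7.23% and 1.84% of all genes. After centring 3 were lower, and the list median was -0.19, or -0.08 after centring. Macrophage iron genes on that list had similar clodronate differences on both diets: Hmox1, which breaks down haem, had -2.08 with low-fat and -1.98 with high-fat feeding, and Slc11a1, the phagosomal metal exporter, -2.27 and -1.95. Among CAR and PXR targets, Cyp2b10, the classic CAR-induced P450, was at 1.75, 2.04, 5.77 and 3.10. It was measurable on the high-fat PBS array alone, so the high-fat clodronate difference was at least 3.42-fold lower and the diet dependence is not resolved. The receptor gene itself, Nr1i3, had 8.35, 8.75, 9.26 and 9.08 (-0.59), and 4 of 19 measurable genes of this list were lower at 1.5-fold and 0 higher, beside 7.23% and 1.84% of all genes. The lower 4 include Cyp2b10 and Cyp2b9, which are unresolved; of the 17 resolved genes Alas1 and Nr1i3 were lower, and after centring Alas1 alone, with Nr1i3 at -0.46.

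Most macrophage genes were lower with clodronate on both diets, and Cd5l and C1qb kept more signal on the high-fat diet. Cd5l, a scavenger-type protein secreted by Kupffer cells, had 10.71, 3.38, 10.64 and 5.82. The PBS arrays were alike and high-fat clodronate was clearly above the limit, so the clodronate difference was at least 3.71-fold smaller on the high-fat diet. C1qb, a chain of complement C1q, had 9.86, 4.04, 9.96 and 6.02, a difference of differences of 1.87 (3.67-fold). Its 2 other probe sets gave 1.71 and at least 1.03. The probe sets with 1.87 and 1.71 are of the type that can match related transcripts, and the one with at least 1.03 is not. Ctss, the lysosomal protease cathepsin S, had 10.10, 7.22, 9.96 and 7.87 (0.79), and Adgre4, an adhesion receptor of macrophages, 8.02, 3.74, 7.40 and 4.56, at least 2.28-fold.

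Defining Kupffer cell genes were too dim after clodronate to be compared. Clec4f, the C-type lectin that defines Kupffer cells, was at 9.40, 1.92, 9.42 and 1.88, and Vsig4, the complement receptor of Kupffer cells, at 9.91, 2.31, 9.66 and 2.35. Both were under the limit on both clodronate arrays, so their remaining levels could not be compared. Csf1r, the receptor for the macrophage growth factor, was measurable throughout at 8.68, 4.33, 8.69 and 4.59 (0.24). C1qa and C1qc, the other chains of the C1q molecule, were at 2.35 and 1.72 with low-fat clodronate and at 2.96 and 2.25 with high-fat clodronate, under the limit in each case.

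Tyrobp, an adaptor of myeloid receptors, went the other way (8.01, 5.42, 8.32 and 5.10, -0.62, and -0.50 after centring). Lyz2 (-0.13), Fcer1g (0.08), Mpeg1 (0.16) and Fcna (-0.11) had nearly equal clodronate differences on the 2 diets. Cd163, the haemoglobin scavenger receptor, and Marco, a scavenger receptor of particles, passed 2-fold as deposited (1.18 and 1.40). In both the value came from the PBS arrays: Cd163 had 7.95 with low-fat and 6.77 with high-fat PBS and was under 4 on both clodronate arrays, and Marco had 5.40 and 3.77. Neither is resolved.

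Of the 14 Kupffer cell genes 4 were higher and 1 lower at 1.5-fold, beside 1.84% and 7.23% of all genes. Of the 7 that are resolved, 1 was higher (Cd5l) and 1 lower (Id3); Marco, Cd163 and Folr2, the other higher genes, are unresolved. The list's median was 0.14, which lay 0.23 above that of all genes, but over genes measured on all 4 arrays that distance was -0.066. Id3, a BMP target that other liver cells express as well, had 9.40, 9.75, 9.53 and 9.01 (-0.87). Other members that liver cells share had small clodronate differences: the iron exporter Slc40a1 had 10.84, 10.34, 10.83 and 10.10 (-0.22), and the complement component C6 10.34, 10.24, 10.19 and 10.04 (-0.05). Of 14 measurable pan-macrophage and monocyte genes, 3 were higher and 1 lower, beside the same 1.84% and 7.23% of all genes, with a median of 0.16. Their summed level was 12.57 and 10.09 on the low-fat and 12.45 and 10.13 on the high-fat arrays, PBS first. Of the 20 genes on that list with a probe set, those under 4 on all arrays included the monocyte receptors Ccr2 and Cx3cr1. The 5 measurable dendritic cell and MHC class II genes had 0 at 1.5-fold, with Cd74 at -0.35.

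**Figure D4:**
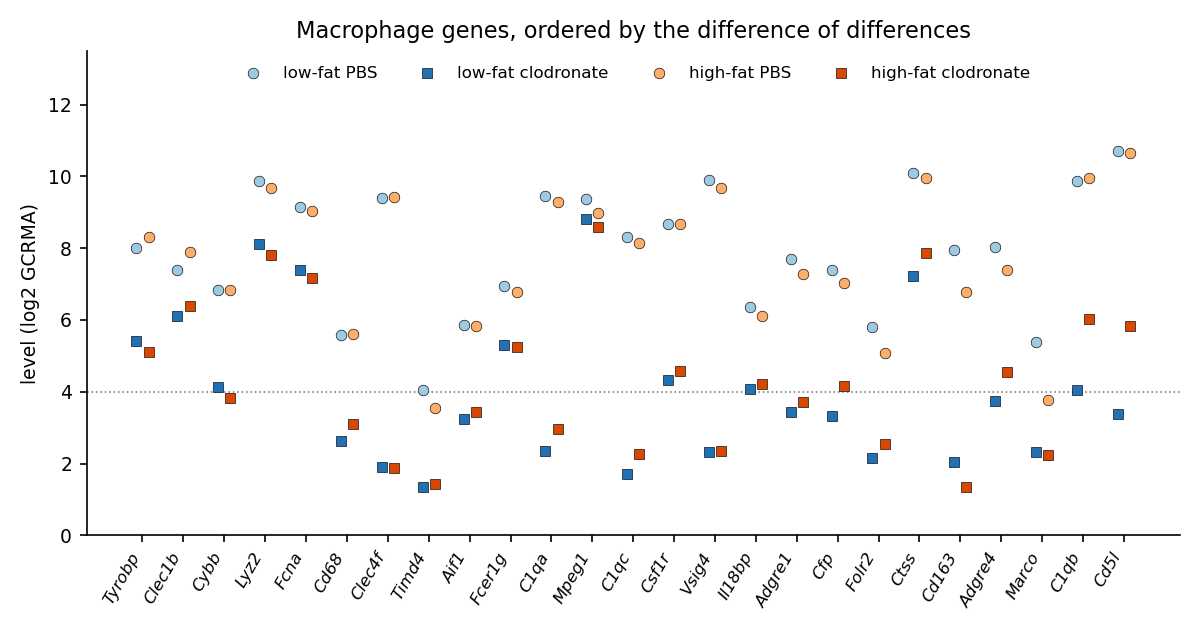
Levels (log2) of macrophage and Kupffer cell genes on each of the 4 pooled arrays, without C6, Id3 and Slc40a1, circles PBS and squares clodronate, ordered by the difference of differences; the dotted line marks the limit of 4. Clodronate squares lie below the PBS circles for each gene shown, and the high-fat squares of Cd5l and C1qb stand well above their low-fat squares.

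Other genes with a higher clodronate difference on the high-fat diet came from no single list. Pik3cd, the leukocyte form of the PI3-kinase catalytic subunit, had 4.26, 3.96, 4.05 and 6.41, at least 6.16-fold. High-fat clodronate alone was above the dim range, and the other 5 Pik3cd probe sets were under 4 on every array. Tsks, a testis kinase substrate, had 5.81, 4.92, 4.43 and 5.12 (1.58), and Rexo5, an RNA exonuclease, 4.86, 4.65, 4.45 and 5.75 (1.51). Tsks had opposite clodronate differences on the diets, and Rexo5 was high on the high-fat clodronate array. Rfc4, a subunit of the DNA clamp loader, had 5.99, 5.10, 5.44 and 5.89 (1.34), Aif1l, an actin-binding protein, 5.02, 4.49, 4.49 and 5.25 (1.30), and Qtrt2, of the queuosine tRNA enzyme, 5.54, 4.73, 4.15 and 4.60 (1.26).

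In these last genes the levels lay between 4 and 6 on all arrays. Slc38a9, the lysosomal arginine sensor of mTORC1, had 6.20, 5.72, 5.66 and 6.20 (1.04), and its other detected probe set was unresolved. For 3 further genes another probe set disagreed: Anp32a (8.66, 8.69, 8.49 and 9.58, 1.07) had -0.60 and -0.074, Mapre2 (7.40, 6.25, 6.70 and 6.70, 1.14) had -0.13, and Vat1 (5.47, 4.68, 4.92 and 5.43, 1.31) had -0.39 as a bound. Those 3 are therefore values of single probe sets, and so are the values of genes without another detected probe set. Another was detected for 7 of the 21 higher genes and 29 of the 100 lower ones. The remaining higher genes were the kinase gene Vrk2 (1.01), Ccdc69 (1.03), Csdc2, at least 2.02-fold, and the semaphorin Sema3f, which was under 4 on 3 arrays and at 5.55 with high-fat clodronate.

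Acute phase proteins, which hepatocytes secrete under interleukin-1 and interleukin-6, split at the gene level. Lcn2, the iron-siderophore binding protein lipocalin 2, had 4.94, 7.68, 6.89 and 7.57. The clodronate arrays were alike and low-fat PBS stood apart as low, giving a clodronate difference of 2.74 with low-fat and 0.69 with high-fat feeding (-2.06, 4.16-fold). Neutrophils also make Lcn2: of 11 neutrophil markers with a probe set, 2 reached 4, both on the low-fat clodronate array, S100a8 at 4.15 and S100a9 at 4.05. The neutrophil list's summed level was 5.66 and 6.24 on the low-fat and 5.79 and 5.94 on the high-fat arrays, and its part in the Lcn2 difference was not tested.

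Orm2, an orosomucoid, ran opposite to Lcn2, with 7.35, 8.47, 7.15 and 10.08. Clodronate was higher on both diets, by 1.12 and 2.93, and high-fat clodronate stood apart as high (1.81, 3.51-fold). Its close relative Orm1, whose transcript is nearly identical, had 13.42, 13.72, 13.31 and 13.59 (-0.02). Serum amyloid genes had clodronate differences in 1 direction on both diets: Saa1 had 9.97, 10.77, 10.81 and 11.76 (0.15) and Saa2 8.33, 8.48, 8.69 and 9.31 (0.47). Haptoglobin, Hp, had -0.24. Fgl1, a fibrinogen-like hepatokine, had 10.75, 11.75, 11.06 and 11.30 (-0.77), and Lbp, which presents bacterial lipopolysaccharide, -0.45. Of 20 measurable acute phase genes, 1 was higher and 2 lower at 1.5-fold, beside 1.84% and 7.23% of all genes. The median was -0.10, that of all genes -0.09.

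Among core clock genes the widest measured value was that of Cry1. Cry1, a repressor of CLOCK and BMAL1, had 7.29, 6.85, 6.01 and 6.47. The clodronate difference was -0.45 with low-fat and 0.46 with high-fat feeding (0.90). Per3, another repressor, had 4.94, 4.82, 5.83 and 6.33 (0.63, and 0.30 in its other measured probe set), and Per2 0.46. Ciart, a repressor of the same loop, was at 3.18, 2.65, 4.14 and 5.08 and is not resolved. Nr1d1, REV-ERB alpha, had the lowest value on the list, -0.57.

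Of 13 measurable core clock genes 3 were higher at 1.5-fold and 0 lower, beside 1.84% and 7.23% of all genes, and of the 10 that are resolved 2 were higher. The median was 0.24, or 0.32 after centring. It lay 0.33 above that of all genes, but 0.061 above with a floor of 5 and 0.072 with the median over probe sets. Among clock output genes Usp2, a circadian deubiquitinase, had 6.15, 5.39, 8.12 and 8.44 (1.08, with an unresolved 1.08 in its other probe set). Pfkfb3, which makes the activator of phosphofructokinase, had 5.20, 6.48, 5.63 and 5.28 (-1.63) and was high on the low-fat clodronate array. Dbp, a D-box factor, had -0.21.

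Interferon-inducible genes were lower with clodronate on the low-fat diet in their largest members. Ifit3, an antiviral effector, had 6.91, 6.22, 6.46 and 6.54 (0.77). The chemokine Cxcl10 had 4.99, 4.25, 4.81 and 4.89 (0.82), and Cxcl9 8.15, 6.62, 8.08 and 7.19 (0.64, with its other detected probe set unresolved). Cxcl10 was under 5 on all 4 arrays, and with a floor of 5 its value was 0. For Ifit3 and Cxcl10 the high-fat arrays were level. Ifit1 went the other way (-0.44). Of 18 measurable genes, 3 were higher at 1.5-fold and 0 lower, beside 1.84% and 7.23% of all genes. Of the list 61.1% lay above 0, beside 34% of all genes, and after centring 77.8% beside 55.8%. The median was 0.14, or 0.27 after centring.

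Chaperones and other genes of the unfolded protein response, which hepatocytes use when protein folding in the endoplasmic reticulum is strained, had small values. Of 20 measurable genes 70% were above 0 as deposited, beside 34% of all genes, and 95% after centring, beside 55.8%, with a median of 0.13 and 0.26 and 0 genes at 1.5-fold. Creld2 had 10.52, 9.61, 10.46 and 9.96 (0.41), Syvn1, a ubiquitin ligase of misfolded proteins, 10.78, 10.02, 10.61 and 10.20 (0.36), and Hspa5, the main chaperone BiP, 0.18. Clodronate was lower than PBS on both diets for these 3 genes, by more on the low-fat diet. Immediate early genes had no common direction: Egr1 had 5.84, 5.20, 6.48 and 6.78 (0.93) and Klf6 0.85, with its other detected probe set unresolved, but Gadd45g, a growth arrest gene, had 6.80, 7.16, 6.80 and 6.16 (-1.01, and -0.88 after centring) and Ier2 -0.60.

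The title of the series names interleukin-1 beta and PPAR alpha. Il1b was at 3.25, 2.93, 3.48 and 2.86, under the limit on each array, as were Tnf and the receptor antagonist Il1rn. Ppara, the fatty acid sensing receptor, had 11.06, 11.15, 11.38 and 11.47, a clodronate difference of 0.08 with low-fat and 0.09 with high-fat feeding (0.01). Of 26 measurable genes of PPAR alpha and its targets, Acot3 was the 1 at 1.5-fold, beside 9.06% of all genes. The list's median was -0.04. Cpt1a, which admits fatty acids to mitochondria, had -0.09, Cyp4a14, a fatty acid hydroxylase, -0.39 and Ehhadh, a peroxisomal oxidation enzyme, -0.19. Of 10 measurable genes downstream of interleukin-1 and NF-kB, Rela, the p65 subunit, was the 1 at 1.5-fold, with 8.42, 8.91, 8.66 and 8.19 (-0.96), and the median was 0.01.

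Lipid and energy genes lay near the all-gene median. Their counts at 1.5-fold stand beside 1.84% of all genes higher and 7.23% lower. Of 24 lipogenesis genes 1 was lower, Dgat1, the last enzyme of triglyceride synthesis (-0.69, and -0.57 after centring), and Fasn, the fatty acid synthase, had 0.06. Of the 17 measurable insulin and FOXO1 genes, Igfbp1, a FOXO1 target, was higher (10.28, 10.35, 8.81 and 9.58, 0.69), and Foxo1 (-0.77, with -0.22 and -0.21 in its other detected probe sets) and Irs1 (-0.73) were lower. Fabp5, a fatty acid binding protein, had 12.15, 11.65, 9.58 and 9.68 (0.59), with a diet difference between the PBS arrays of -2.57, far wider than its clodronate differences. Lpl, lipoprotein lipase, which macrophages also make, had 7.96, 6.57, 7.11 and 4.94 (-0.78). Its other detected probe set went the other way (0.51) but is unresolved, since high-fat clodronate was at 3.92. Glucose metabolism, cholesterol synthesis, oxidative phosphorylation and ribosomal protein lists had 0 genes at 1.5-fold, with medians of 0.01, 0.04, -0.07 and -0.12.

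Markers of the other liver cells differed little. At 1.5-fold, 1.84% of all genes were higher and 7.23% lower. Of 16 sinusoidal endothelial genes, Bmp2, the BMP that endothelium sends to hepatocytes, was higher (8.02, 8.09, 7.68 and 8.35, 0.60). Of 11 measurable stellate and matrix genes, Lum, a collagen-binding proteoglycan, was lower (5.07, 4.82, 5.08 and 4.18, -0.66, and -0.53 after centring). The 13 measurable hepatocyte markers had 0 at 1.5-fold and a median of -0.03. Metallothionein Mt1, a zinc-binding protein, had 6.09, 7.66, 6.78 and 7.66 (-0.69), with equal levels on the clodronate arrays, and the zinc importer Slc39a4 -0.78. The 6 measurable cell cycle genes had a median of -0.39, and 14 of 20 listed genes had no level of 4. Taken minus that of all genes the median was -0.30, and 0.042 with a floor of 5. The cyclin Ccnd1 had -0.67, with -0.97 and -1.26 in its other probe sets. Mcm6, of the replicative helicase, had -0.82, but -0.0074 with a floor of 5 and -0.32 as the median over its probe sets. Of the 37 lists with 5 or more measurable genes, 21 had a median within 0.1 of that of all genes and 29 within 0.2, and 13 had no gene at 1.5-fold.

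**Figure D5:**
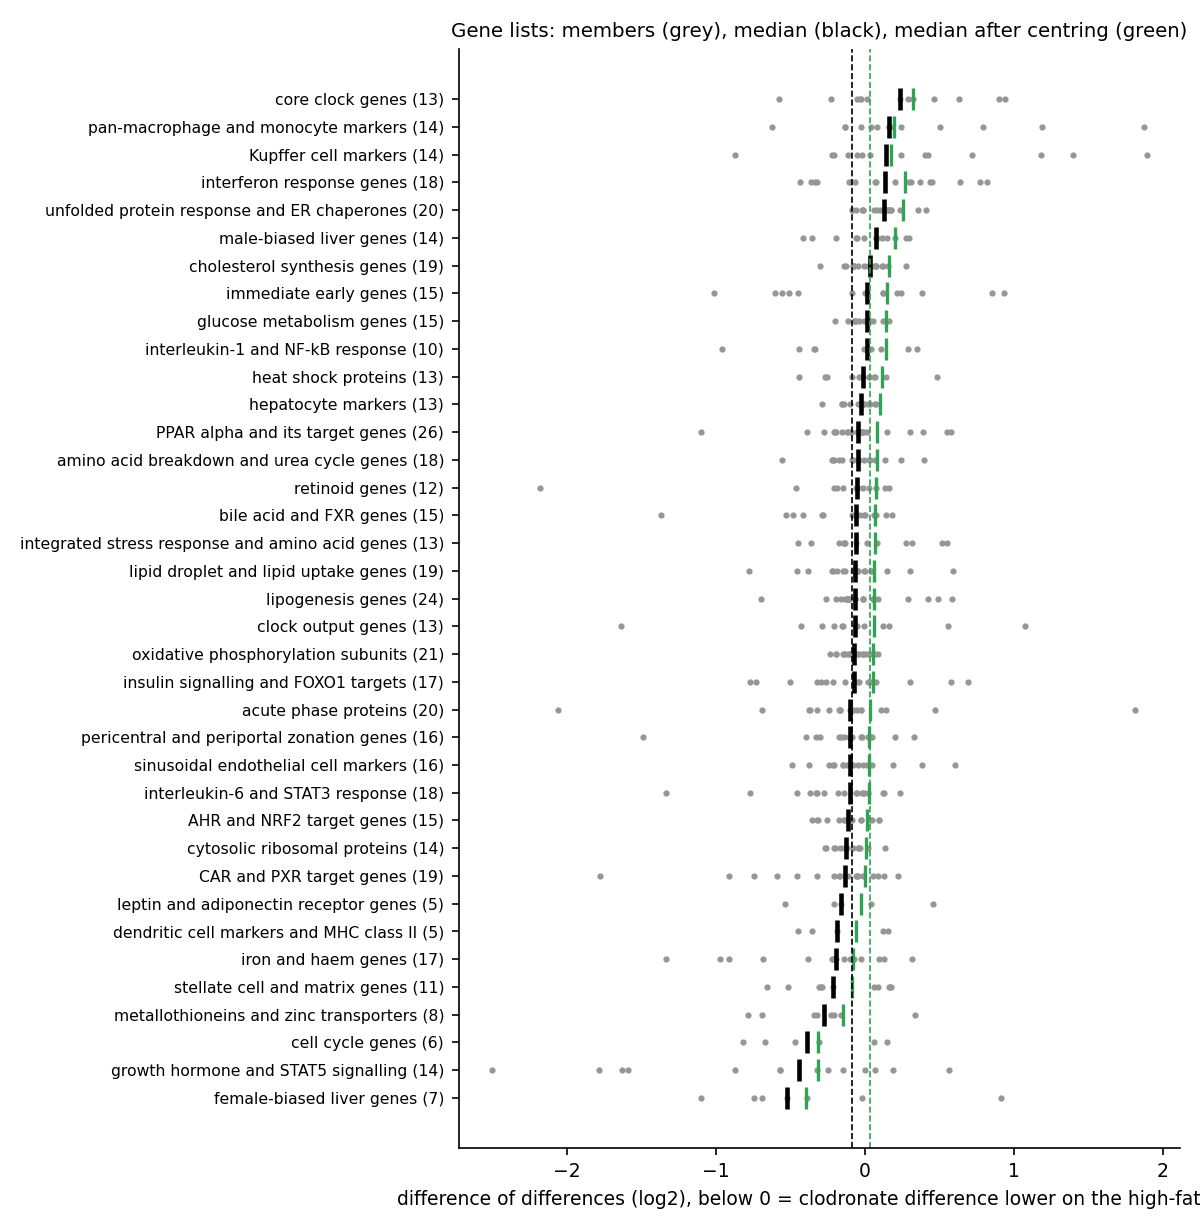
Difference of differences (log2) of the measurable members of 37 gene lists, the number of members in brackets; grey points are genes, black and green bars the list medians as deposited and after centring, and dashed lines the medians of all genes, -0.09 and 0.03. The growth hormone list reaches from -2.50 to 0.57 and the core clock list lies mostly right of the lines.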

How the data were processed

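Liver RNA of 4 pools was hybridised to 1 Affymetrix array each. The deposited values are log2 expression values of 45101 probe sets. Per the submitters' processing notes the tool was GCRMA 2.24.1, which models background from probe sequence, equalises the distributions of the arrays and combines the probes of a set. Scanner files were not used here. Of the probe sets, 35890 were listed in the platform annotation, 932 with several symbols. For 34754 probe sets the Entrez identifier was found in the RefSeq table of GRCm38.p6, which altered 0 symbols.

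Values under 4 were set to 4, and the difference of differences was taken per gene, with its class (measured, bound or unresolved). A bound rests on the limit of 4, not on the dim array's own value. Each gene was checked over its other probe sets that reached 4, after centring each array on its median over genes at 4 or more on all arrays, and after quantile normalization over all probe sets. Other alternatives were a floor of 3, of 5 or none, the median over probe sets, and genes measured on all arrays alone. With 1 array per group the number of arrays limits the precision, no test was possible, and lists are described by counts and medians beside those of all genes. An array stood apart when its gap to the nearest other array exceeded the range of the other 3.

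Named genes were, per direction, the 12 measured genes with the largest value past 2-fold and up to 8 bounds past 2-fold; every resolved list member past 2-fold; the 5 largest members of each of 41 lists; and Il1b and Ppara. Further list members and 2-fold genes were named after their values were seen. The members and the lists were chosen with earlier results of these data known. The steps were tested on simulated data and run in Python 3.11.15 with numpy 2.4.6, pandas 2.3.3 and matplotlib 3.10.9.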

Additional observations from a re-analysis of the deposited data

Results flagged for a closer look

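The clodronate difference was 1.5-fold or more on each diet but in opposite directions for 11 of the named genes, which drew attention to them; with 1 pooled array per group the difference between the diets was not tested. In 10 of them clodronate was above PBS on the low-fat diet and below it on the high-fat diet. The differences of differences (log2) were -2.50 for Cish and -1.78 for Socs2, the inhibitors of growth hormone signalling, -2.10 for the transcription factor Atoh8, -1.90 for D130043K22Rik and -1.64 for Aptx. They were -1.63 for the serpin pseudogene Serpina4-ps1, -1.54 for the ubiquitin ligase Rnf186, -1.49 for the Wnt pathway receptor Lgr5, -1.36 for the bile acid enzyme Cyp7a1 and -1.23 for Zfp2. Tsks ran the other way, with clodronate below PBS on the low-fat and above it on the high-fat diet (1.58). The other detected probe set of Socs2 did not reach 1.5-fold on the high-fat diet (-0.26). Over all genes analysed, 15 (0.173%) had such opposite differences. Such a gene is past 2-fold by definition, and many named genes were chosen for large values. That share is therefore no baseline for the named genes.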

How the results depend on the processing

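The counts of genes depended on the floor and the scaling. The 21 genes 2-fold higher on the high-fat diet became 36 with a floor of 3, 8 with a floor of 5, 37 with no floor, 40 after centring and 52 after quantile normalization. The 100 genes 2-fold lower became 63 with a floor of 5, 52 after centring and 46 after quantile normalization. At 1.5-fold, the 159 higher genes became 90 with a floor of 5, 286 after centring and 295 after quantile normalization, and the 625 lower genes 375 and 329 under the 2 scalings. List medians, taken minus that of all genes, were followed for the Kupffer cell, pan-macrophage, growth hormone and female-biased lists. The interferon, core clock, unfolded protein response and cell cycle lists were followed too. The medians moved for 3 of these lists. The Kupffer cell value of 0.23 became 0.44 with no floor and -0.066 over genes measured on all 4 arrays, which leaves out the genes that clodronate brought under the limit. The core clock value of 0.33 became 0.061 with a floor of 5 and 0.072 with the median over probe sets, and the cell cycle value of -0.30 became 0.042 with a floor of 5; the cause was not tested.

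Of the 40 named genes past 2-fold, 37 stayed past it after centring and 37 after quantile normalization, 40 with a floor of 3, 39 with no floor and 24 with a floor of 5. With the median over probe sets 34 stayed, 5 were smaller and Anp32a turned to -0.074. Of 20 other probe sets of these genes, 8 were past 2-fold in the same direction, 8 were smaller and 4 turned: -0.60 and -0.074 for Anp32a, -0.13 for Mapre2 and -0.39 for Vat1. No paired analysis was possible because each group is 1 pooled array, and for the same reason no replicate could be left out. Low signal limits the genes under 4, for which no level is known.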

Other observations

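The transcription factor genes Hhex, Foxa2 and Gata4 belong to no list, were chosen after their values were seen, and stayed past 2-fold under all 3 scalings. Hhex, a homeobox factor of liver development, had 9.83 with low-fat PBS, 10.43 with low-fat clodronate, 9.76 with high-fat PBS and 9.12 with high-fat clodronate, a difference of differences of -1.24 on the log2 scale, or -1.11 after centring. The PBS arrays were alike, low-fat clodronate was the highest array and high-fat clodronate the lowest. Foxa2, a pioneer factor of hepatocytes, had 8.45, 9.18, 8.73 and 8.31 in the same order (-1.15), with low-fat clodronate apart as high. Gata4, a GATA factor of endoderm and liver endothelium, had 5.14, 5.48, 5.06 and 4.22 (-1.17), with high-fat clodronate apart as low. None of the 3 has another detected probe set, and the differences have no replicate check. Hnf4a, another liver transcription factor, had -0.15, with -0.28, 0.26 and -0.74 in its other probe sets.

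Outside the genes analysed, 1912 probe sets without exactly 1 gene symbol reached 4 on an array. Of these 8 had a 2-fold higher and 38 a 2-fold lower clodronate difference on the high-fat diet, 2.41% in all, beside 1.4% of the genes analysed. The first share counts probe sets and the second counts genes, each by its probe set with the highest mean. The 2 shares are therefore not a like comparison.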
